A study of Mus musculus with 12 samples.

Results

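The genes described here are 10 of the major urinary protein genes, Mup1, Mup2, Mup3, Mup7, Mup10, Mup11, Mup12, Mup17, Mup20 and Mup21, taken by symbol from a table of 56107 genes measured by RNA-seq in 12 mouse livers. The study compared Lix1l knockout mice with WT littermates that were placed at 6 weeks of age on diets low in fat (LFD) or high in fat (HFD), which they ate for 12 weeks. The groups, of 3 livers each, were WT on LFD (mice 4, 7 and 8), WT on HFD (mice 1, 2 and 6), knockout on LFD (mice 2, 4 and 5) and knockout on HFD (mice 1, 5 and 6). The labels name no Cre or transgene and do not give the knockout allele, the strain or the sex of the mice. The question set by the study is how LIX1L affects the liver in diet-induced steatohepatitis, and the comparisons below ask it of the major urinary protein genes only. Each liver is 1 library, and p-values measure the spread between these livers.

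Major urinary proteins are small lipocalins that mouse hepatocytes secrete into the blood and that pass into the urine, where they bind and slowly release volatile pheromones. In mice their liver transcription is known to depend on the pulsed pattern of growth hormone acting through STAT5B, with androgen, thyroid hormone and glucocorticoid also acting, and it is much higher in males than in females. Mup20 encodes darcin, a pheromone in its own right that attracts females, and circulating MUP1 has been described in mice as a regulator of glucose and lipid metabolism.

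All 10 genes lie on the minus strand of chromosome 4 (GENCODE M21 on GRCm38), in a tandem array of 22 protein-coding Mup genes that runs from 59956804 to 62150863, a length of 2194 kb. Mup7 (60066469 to 60070475), Mup2 (60135932 to 60154289), Mup1 (60498012 to 60501960), Mup10 (60578260 to 60582199), Mup11 (60658466 to 60662411), Mup12 (60737383 to 60741326) and Mup17 (61591929 to 61595871) stand among near-identical copies. Mup20 (62050234 to 62054158), Mup3 (62083476 to 62087342) and Mup21 (62147932 to 62150863) stand close together at the far end of the array.

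The copies share much of their transcripts, so reads can be divided between them. Every transcript was split into words of 31 bases, and the share of a gene's words that also occur in another gene was counted. That share was 92.1% for Mup12, 90.0% for Mup7, 86.2% for Mup17, 83.3% for Mup11, 83.2% for Mup10, 78.7% for Mup2 and 70.2% for Mup1. It was 64.5% for Mup20, and only 33.8% for Mup21 and 30.1% for Mup3. Of all words of Mup20, 51.2% occur in a pseudogene, Mup-ps19, which was listed at a mean of 15.1 TPM against 7534 TPM for Mup20. Values of single genes are therefore uncertain for the 7 close copies (Mup1, 2, 7, 10, 11, 12 and 17), less so for Mup20, and least so for Mup3 and Mup21, and sums over the genes are given beside them.

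Promoter windows from RefSeq (GRCm38.p6, 250 bases before to 50 after the annotated start) were held for 7 of the 10 genes, all but Mup1, Mup12 and Mup20. A block upstream of the RefSeq start and outside annotated exons is printed for the 2 genes that passed the test described below as higher in knockout livers on HFD, Mup2 (chr4:60139955-60140105) and Mup10 (chr4:60582255-60582405). It is also printed for 2 genes of the far end of the array whose values were lower in those livers, Mup3 (chr4:62087363-62087512) and Mup21 (chr4:62150881-62151030). All 4 are on the minus strand, read 5′ to 3′, and capitals mark the bases that differ from Mup2 in a pairwise alignment.
Mup2: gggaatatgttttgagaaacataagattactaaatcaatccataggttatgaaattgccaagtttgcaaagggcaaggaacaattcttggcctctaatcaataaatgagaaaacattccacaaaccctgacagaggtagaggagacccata
Mup10: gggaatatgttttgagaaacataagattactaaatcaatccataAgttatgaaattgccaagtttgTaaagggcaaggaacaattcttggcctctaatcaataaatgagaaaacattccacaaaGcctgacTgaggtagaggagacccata
Mup3: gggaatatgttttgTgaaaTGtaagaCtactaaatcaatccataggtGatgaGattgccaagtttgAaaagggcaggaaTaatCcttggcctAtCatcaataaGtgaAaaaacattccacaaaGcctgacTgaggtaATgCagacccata
Mup21: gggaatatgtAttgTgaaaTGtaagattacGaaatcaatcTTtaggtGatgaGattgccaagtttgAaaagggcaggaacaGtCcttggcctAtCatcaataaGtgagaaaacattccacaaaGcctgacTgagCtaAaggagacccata
Over this block Mup10 was 97.4% identical to Mup2, with 4 bases in capitals, while Mup3 was 87.4% identical with 18 and Mup21 86.8% identical with 19. Mup3 and Mup21 were 92.7% identical to each other. The block of Mup11 was 99.3% identical to that of Mup2 and the block of Mup17 98.7%. Neither of those genes passed the test described below, though both were higher in every knockout liver on HFD than in any WT liver on HFD. The TATATAA motif, searched on both strands of the whole window, was present in 6 of the 7 genes, against 3.24% of 32851 mouse promoter windows. The STAT motif TTCNNNGAA, which is its own reverse complement, was in 0 of these 7 windows and in 8.3% of all windows, and a missing match says only that these letters are not in these windows.

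The library of WT mouse 7 on LFD stood apart from the others, and it bears on every result with the LFD groups. Its 10 genes took 1.24% of all TPM (a transcript level corrected for length and set against the total of its library), against 6.81% and 7.49% in the other WT livers on LFD. Relative to the mean of those livers, Mup1 was 174-fold lower in this library, Mup7 151-fold, Mup12 168-fold and Mup17 165-fold, but Mup10 only 2.04-fold and Mup3 2.25-fold. Of 15 other genes known to be male-biased in mouse liver, 11 had their lowest value of all 12 libraries there, and of 15 female-biased genes 8 had their highest, among them Cyp2b9 at 128 TPM and Cyp2a4 at 23.2. The Y-linked gene Ddx3y was at 12.1 TPM in it and Xist was listed at 0, and over all libraries Ddx3y ranged from 7.45 to 14.2 TPM. Knockout mouse 5 on LFD had the lowest value of Mup3, Mup20 and Mup21 among the 12 libraries, and knockout mouse 2 on LFD the highest of Mup1, Mup7, Mup11 and Mup17. In knockout mouse 5 on LFD 11 of the 15 male-biased genes were lowest within its group and 2 highest. The lipocalin gene Lcn2 was at 2570 TPM there, against 42.0 and 76.3 TPM in the other knockout livers on LFD. Orm1, another lipocalin gene, was at 14906 TPM against 3293 and 5604 TPM. WT mouse 2 on HFD showed a smaller shift of the same kind as WT mouse 7 on LFD, with 14 of the 15 male-biased genes lowest within its group. The part of sex-biased expression, or of the state marked by Lcn2 and Orm1, in the Mup values of these libraries was not tested.

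Other facts of the series also touch the results. Lix1l itself did not separate the genotypes. It was listed at 0.15 to 1.92 TPM over 12 libraries, near the filter limit of 1 TPM, where a difference is hard to see. Its level in the livers labelled knockout differed from WT by -0.17 ± 0.31 on HFD (log2 change ± standard error, adjusted p = 0.695, limma) and by -0.35 ± 0.31 on LFD (adjusted p = 0.716), so "knockout" below means the livers labelled so. A library had 10265 to 11353 genes at 1 TPM or more. Mitochondrial transcripts made up 7.53% to 22.6% of TPM, with the highest share in knockout mouse 1 on HFD. The files hold no counts, so depth is unknown.

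As a sum the 10 genes were abundant in every group, while Mup21 alone lay between 55.9 and 610 TPM. Together they took 5.67%, 3.67% and 6.21% of TPM in the WT livers on HFD and 4.41%, 4.36% and 6.11% in the knockout livers on HFD. On LFD they took 7.49%, 1.24% and 6.81% in WT and 6.72%, 3.43% and 1.95% in knockout livers. The groups overlapped on both diets. The ratio of the group means, knockout over WT, was 0.957 on HFD and 0.778 on LFD, and HFD over LFD was 1.001 in WT and 1.23 in knockout livers, while the log2 sum varied with an SD of 0.889 within groups. Each difference was smaller than this spread. Without WT mouse 7 on LFD the SD was 0.545 and the log2 ratio of knockout over WT on LFD, -0.83, was larger than it.

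**Figure D1:**
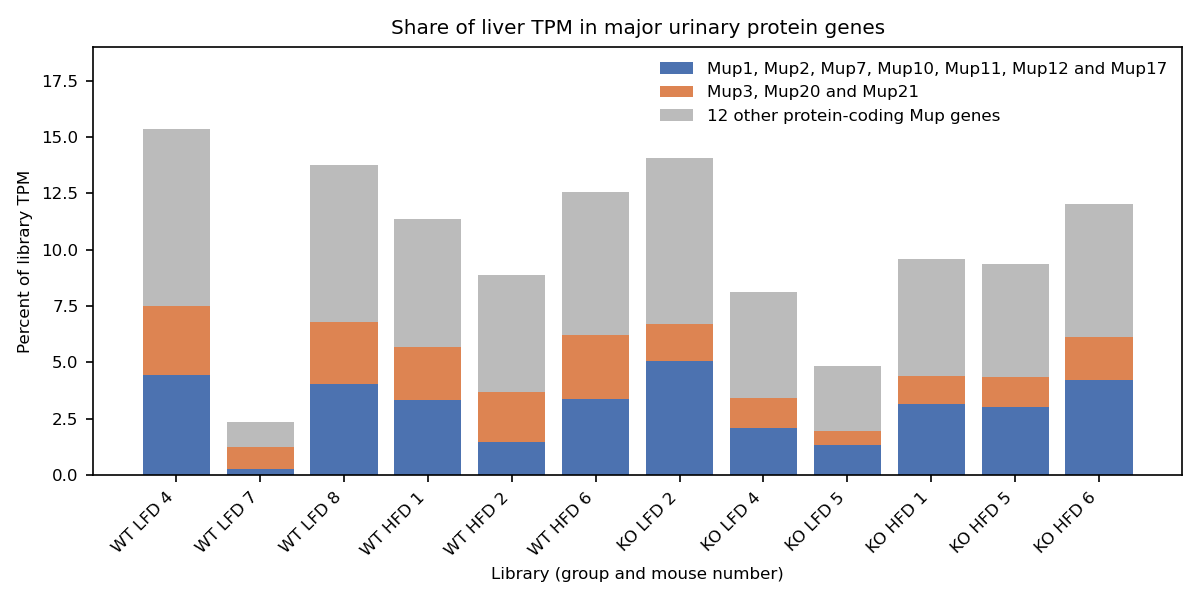
Percent of each library's TPM (vertical axis) in the 7 close copies, in Mup3, Mup20 and Mup21, and in the 12 other protein-coding Mup genes, stacked for the 12 libraries (horizontal axis, group and mouse number). The 10 genes sum to between 1.24% and 7.49% of TPM, and WT mouse 7 on LFD has the shortest bar.

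Averaged over the 12 libraries and on the TPM scale, the order of levels was Mup7 (15013 TPM), Mup3 (10729), Mup20 (7534), Mup11 (5581), Mup10 (3669), Mup1 (2198), Mup17 (1416), Mup12 (1063), Mup2 (886) and Mup21 (297). Neighbours in this order were often not separated. Mup20 exceeded Mup11 in 8 of 12 libraries, Mup10 exceeded Mup1 in 8, and Mup17 exceeded Mup12 and Mup12 exceeded Mup2 in 7 each. Mup3 exceeded Mup20 in 11 libraries and Mup1 exceeded Mup17 in 11. The least variable were Mup3 and Mup10, whose highest library was 4.52-fold and 4.55-fold above their lowest, and the most variable was Mup17 at 366-fold, with the low end in WT mouse 7 on LFD.

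On HFD the livers labelled knockout had higher listed values of Mup2 and Mup10 than WT livers. Of the 10 genes, 2 were called higher and 0 lower, against 37.0% of the 11980 genes tested called in this comparison (11.2% higher and 25.8% lower). A gene was called when its adjusted p in limma was below 0.05. The members' median log2 change was 0.87, and that of all genes tested was -0.25. In a comparison that moved so many genes, 2 of 10 is near the background share.

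Mup2, one of the less abundant copies, was at 291, 554 and 268 TPM in the WT livers on HFD and at 2389.6, 2284 and 1736 TPM in the knockout livers on HFD. The lowest knockout liver was above the highest WT liver, and all 3 were also above each of the 6 LFD livers, which lay between 204 and 782 TPM. The group mean rose 5.76-fold, from 371 ± 158 to 2136 ± 351 TPM (SD, n = 3), a log2 change of 2.59 ± 0.52 (adjusted p = 0.00424).

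Mup10 was at 1398, 3959.7 and 1508 TPM in WT and at 5864, 6355 and 5707 TPM in knockout livers on HFD. The groups did not overlap, though WT mouse 2 stood well above the other WT livers. The mean rose 2.61-fold, from 2289 ± 1448 to 5975 ± 338 TPM (SD, n = 3), with a log2 change of 1.56 ± 0.46 (adjusted p = 0.0220). The call of Mup10 was lost without WT mouse 1 (adjusted p = 0.0905), WT mouse 6 (0.0830), knockout mouse 1 (0.0547) or knockout mouse 5 (0.0558) on HFD, each with Benjamini-Hochberg adjustment in limma, and it was kept in 20 of 25 alternative fits. Of the words of Mup22, a more abundant copy outside the 10 genes, 95.1% also occur in Mup10. On HFD Mup22 was at 12977, 21421 and 14678 TPM in WT and 12818, 14025 and 16915 TPM in knockout livers (log2 change -0.14, adjusted p = 0.839 in limma). The part of reads divided between Mup10 and Mup22 in the change of Mup10 was not tested.

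None of the other 5 close copies passed the test, and 4 of them had positive changes. Mup11 was at 3541, 4189 and 3327 TPM in WT and at 7366, 6858 and 8046 TPM in knockout livers on HFD, with no overlap and means 2.01-fold apart (a change of 1.01 ± 0.92 in log2, adjusted p = 0.402). Mup1 was at 2061, 539.6 and 1856 TPM in WT and 3102, 2819 and 3919.6 TPM in knockout livers (1.35 ± 1.54, adjusted p = 0.509). The groups of both genes were apart, and the standard errors come from all 4 groups, with that of Mup1 at 0.47 when only the HFD libraries were fitted. Mup12 (1.46 ± 1.53, adjusted p = 0.470) and Mup17 (0.72 ± 1.56, adjusted p = 0.737) were also higher in all 3 knockout livers on HFD than in any WT liver on HFD. Mup12 was at 962, 249.96 and 851 TPM in WT and 1399, 1514 and 2004 TPM in knockout livers, and Mup17 at 1961, 825 and 1735 TPM in WT and 2549, 2017 and 2426 TPM in knockout livers. Mup7, the most abundant copy, was at 23290.2, 4208 and 24094 TPM in WT and 8918, 8495 and 18353 TPM in knockout livers, and its groups overlapped (-0.26 ± 1.56, adjusted p = 0.912). The sum of the 7 close copies overlapped between genotypes, with a ratio of means of 1.27.

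The genes at the far end of the array had lower values in the knockout livers on HFD, without a call. Mup20, the gene of darcin, was at 11862, 9563 and 12405 TPM in WT and at 3913, 5093 and 8493 TPM in knockout livers. No knockout liver reached a WT liver, and the mean was 0.517 of that in WT (-1.02 ± 0.53, adjusted p = 0.148). Mup21 was at 258, 353 and 521 TPM in WT and 148, 139 and 249 TPM in knockout livers (-1.07 ± 0.75, adjusted p = 0.280). Mup3 was at 11098, 12307 and 15485 TPM in WT and at 8479, 7988 and 10140.0 TPM in knockout livers (-0.54 ± 0.43, adjusted p = 0.337). In sum these 3 genes were 0.604 of the WT level, with separate groups. Over the 10 genes, groups were apart in 9, with 6 above and 3 below, where 53.4% of all tested genes had separate groups (16.1% above and 37.3% below). An exact 2-sided permutation test gives p = 0.1 for each of these 9 genes, the smallest that 3 against 3 livers allow.

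**Figure D2:**
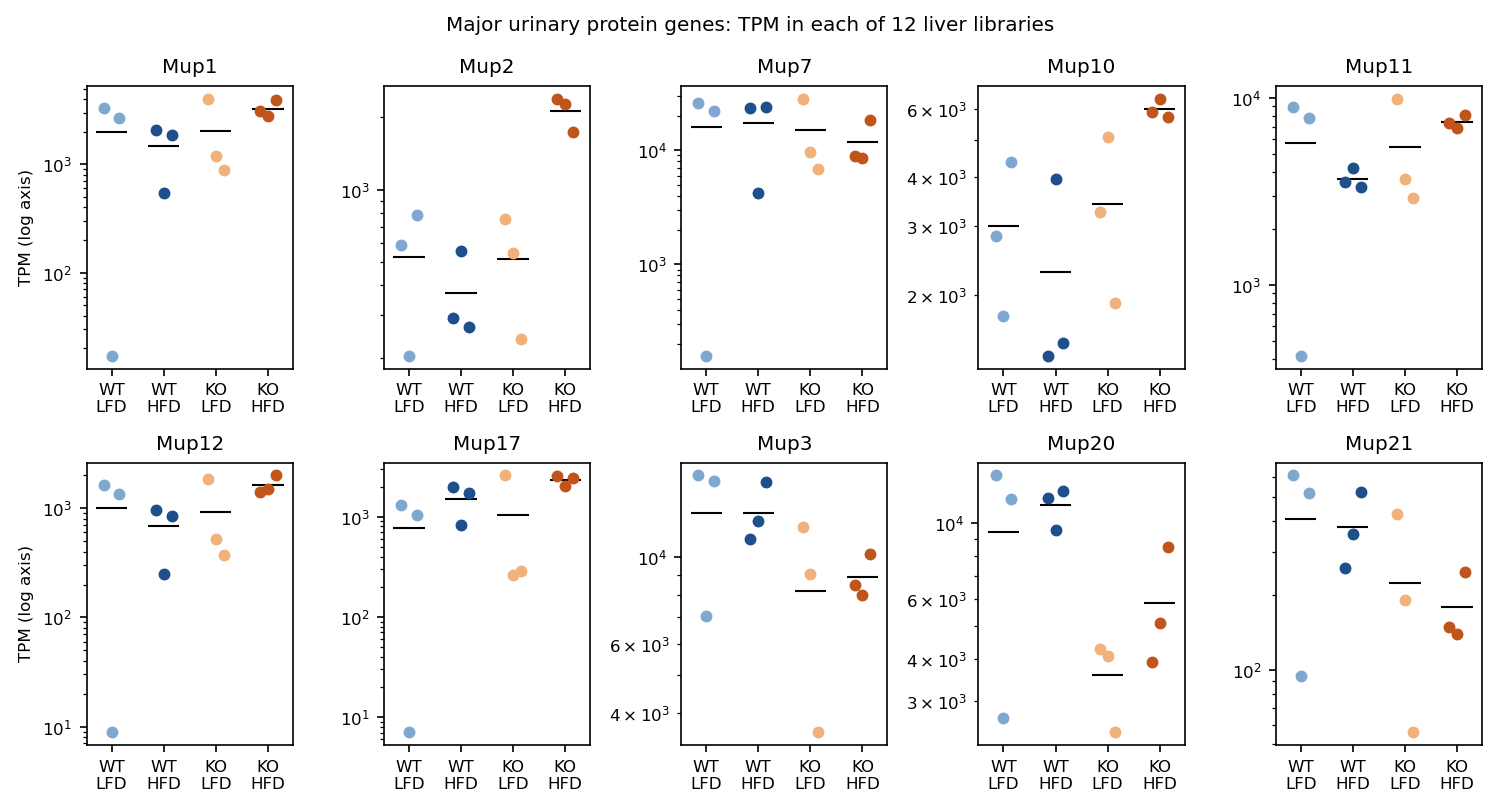
TPM of each of the 10 genes (vertical log axis, a separate scale per gene) in the 3 libraries of each group (points), with the group mean as a bar. Mup2 in knockout livers on HFD lies between 1736 and 2389.6 TPM, above its other 9 libraries, and WT LFD has a far lower point in Mup1, Mup7, Mup12 and Mup17.

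How many genes passed varied with the libraries that were fitted. When only the 6 HFD libraries were fitted, 6 of the 10 were called, against 34.0% of all tested genes in that fit. They were Mup2, Mup10, Mup11 (adjusted p = 0.00816) and Mup12 (adjusted p = 0.0469) as higher, and Mup20 (adjusted p = 0.0317) and Mup21 (adjusted p = 0.0364) as lower. Without WT mouse 7 on LFD, Mup20 was called lower beside Mup2 and Mup10 (adjusted p = 0.0263). Mup2 was called in this comparison in all 25 alternative fits, with log2 changes of 2.39 to 3.03 and adjusted p of 5.01e-05 to 0.0216.

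On LFD 0 of the 10 genes were called between genotypes, with 0 at an unadjusted p below 0.05, against 0.159% of all tested genes called (0.0918% higher and 0.0668% lower). Mup2 was at 590.2, 204 and 782 TPM in WT and 754, 545 and 239 TPM in knockout livers, a log2 change of 0.02 ± 0.52 (adjusted p = 0.993). Mup20 was at 13826, 2689 and 11786 TPM in WT and 4265, 4074 and 2437 TPM in knockout livers, with the overlap made by WT mouse 7 alone (-1.12 ± 0.53, adjusted p = 0.412). Mup3 (-0.74 ± 0.43) and Mup21 (-0.90 ± 0.75) also had lower values, and the close copies Mup1 (1.59 ± 1.54), Mup7 (1.46 ± 1.56), Mup12 (1.36 ± 1.53) and Mup17 (1.39 ± 1.56) had positive changes that were all negative without WT mouse 7, from -0.87 for Mup1 to -1.05 for Mup12. Groups were apart for 0 of the 10 genes, against 17.6% of all tested genes (11.2% above and 6.35% below). The log2 ratio of the summed means was -0.36, and it ranged from -0.945 without knockout mouse 2 on LFD, through -0.83 without WT mouse 7 on LFD and -0.03 without knockout mouse 5 on LFD, to 0.002 without WT mouse 4 on LFD.

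The spread among livers on LFD was wide in both genotypes. Mup7 was at 25722, 158 and 22143 TPM in WT and at 28217, 9681 and 6879 TPM in knockout livers. Mup11 was at 8937, 418 and 7816 TPM in WT and at 9872, 3694 and 2902 TPM in knockout livers. Mup1 was at 3286, 17.1 and 2662 TPM in WT and at 4030.0, 1186 and 895 TPM in knockout livers. In these 3 copies knockout mouse 2 was above WT mice 4 and 8, knockout mice 4 and 5 were lower, and WT mouse 7 was lowest. Mup12 (1632, 8.88 and 1361 TPM in WT, 1868, 527 and 377 TPM in knockout livers) and Mup17 (1298, 7.08 and 1034 TPM in WT, 2592, 261 and 285 TPM in knockout livers) were likewise lowest in WT mouse 7 and highest in knockout mouse 2 among the LFD livers. Mup10 varied less, at 2837, 1769 and 4388 TPM in WT and 3260.3, 5080.0 and 1902 TPM in knockout livers. Mup3 was at 16129.9, 7043 and 15609 TPM in WT and 11886, 9011 and 3566 TPM in knockout livers, and Mup21 at 610.0, 94.6 and 518 TPM in WT and 426, 192 and 55.9 TPM in knockout livers. For both of these genes WT mouse 7 and knockout mouse 5 were the low livers of their groups.

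**Figure D3:**
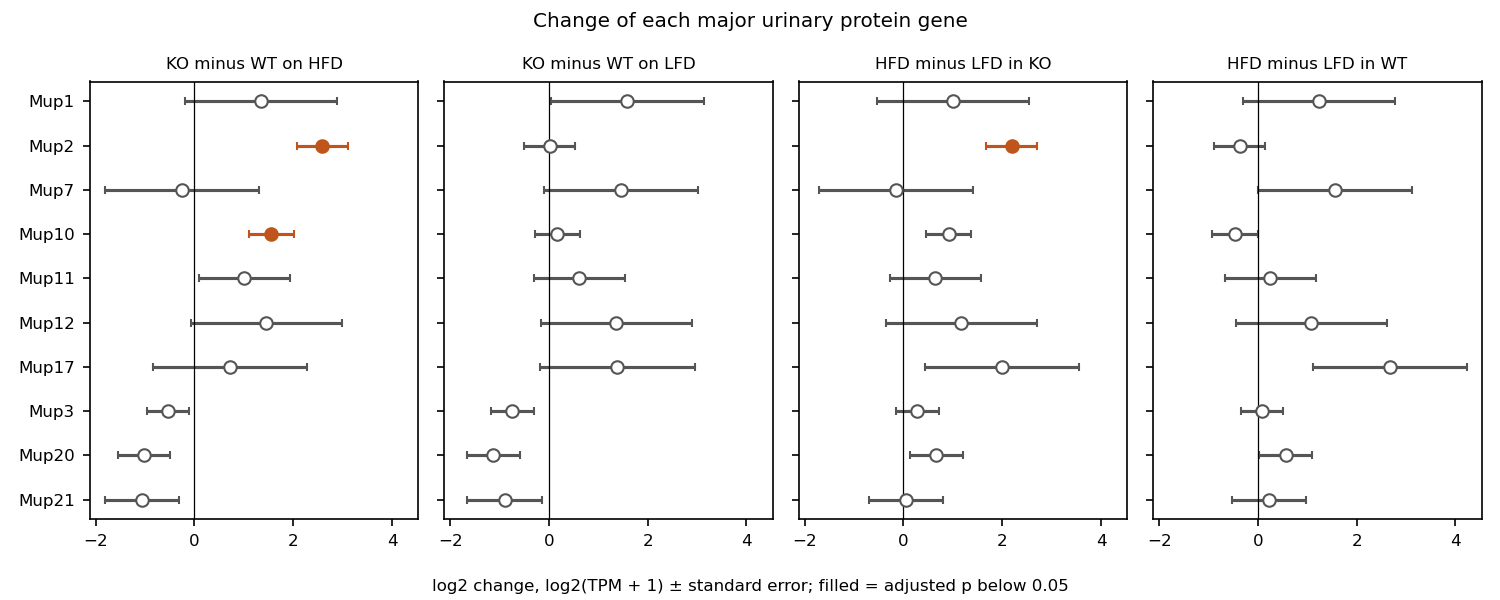
Log2 change (horizontal axis, log2(TPM + 1), point ± standard error) of each of the 10 genes in 4 comparisons, with filled points for adjusted p below 0.05 in limma. Mup2 (2.59) and Mup10 (1.56) are filled for genotype on HFD and Mup2 (2.20) for diet in knockout livers, and no point is filled in the other 2 panels.

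The diet changed Mup2 in the knockout livers. Of the 10 genes 1 was called higher and 0 lower on HFD against LFD in knockout livers, where 23.8% of all tested genes were called (6.73% higher and 17.0% lower). Groups were apart for 2 of the 10 genes, both above, against 38.6% of all tested genes (10.9% above and 27.7% below). Mup2 rose from 513 ± 259 to 2136 ± 351 TPM (SD, n = 3), 4.17-fold, with separate groups (2.20 ± 0.52, adjusted p = 0.0137). Mup10 also had separate groups, with 3260.3, 5080.0 and 1902 TPM on LFD and 5864, 6355 and 5707 TPM on HFD, and did not pass (0.92 ± 0.46, adjusted p = 0.158). In WT livers 0 of the 10 genes were called between diets, with 0 at an unadjusted p below 0.05, against 0.309% of all tested genes (0.250% higher and 0.0584% lower). In this comparison 0 of the 10 genes had separate groups, against 24.0% of all tested genes (15.2% above and 8.81% below). Mup2 in WT livers had a change of -0.37 ± 0.52 (adjusted p = 0.825), and the widest change was that of Mup17 (2.67 ± 1.56, adjusted p = 0.539), which was 0.28 without WT mouse 7 on LFD.

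The genotype difference of Mup2 depended on the diet, tested as an interaction. It was 2.57 ± 0.73 on the log2 scale (adjusted p = 0.0487), and Mup2 was 1 of 10 genes called, against 9.66% of all tested genes (2.54% higher and 7.12% lower). This call lies next to the threshold and was lost without any 1 of WT mice 4 or 8 on LFD, WT mice 1 or 6 on HFD, knockout mice 2 or 5 on LFD, or knockout mice 1 or 5 on HFD, where the adjusted p ranged from 0.0554 to 0.121. It was past the threshold in 11 of 24 alternative fits. Its estimate stayed between 2.09 and 3.14 over all 12 fits without 1 library. For Mup10 the interaction was 1.38 ± 0.65 (adjusted p = 0.162).

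The share that each gene takes of the sum sets aside its total. Mup20 contributed 17.3% to 21.7% of the summed TPM of the 10 genes in WT livers on LFD and 20.0% to 26.0% in WT livers on HFD, but 6.35% to 12.5% in knockout livers on LFD and 8.87% to 13.9% in knockout livers on HFD. All 6 WT livers were above all 6 knockout livers, WT mouse 7 on LFD included. This share was picked after the values were seen and is given as a description without a test. Mup2 contributed 2.84% to 5.42% of the sum in knockout livers on HFD, and 0.433% to 1.64% in the other 9. Mup3 contributed 16.6% to 19.2% in knockout livers on HFD and 19.6% to 33.5% in WT livers on HFD, and reached 56.8% in WT mouse 7 on LFD.

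**Figure D4:**
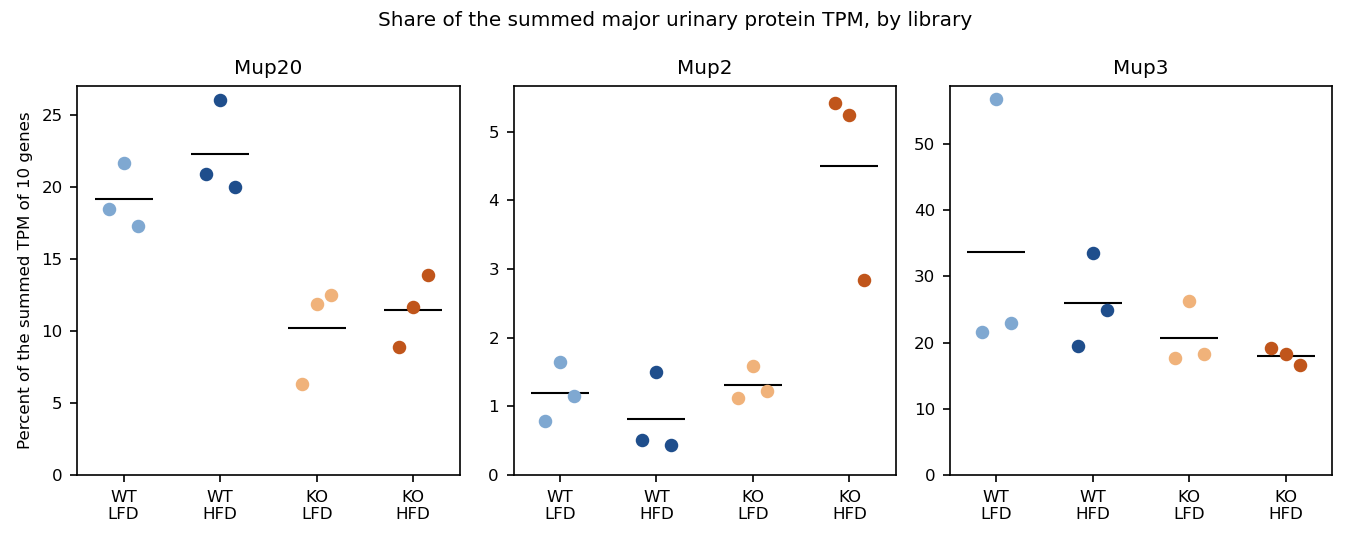
Share of the summed TPM of the 10 genes (vertical axis, percent) held by Mup20, Mup2 and Mup3 in the 3 libraries of each group (points), with the group mean as a bar. Mup20 lies at 17.3% or above in each of the 6 WT livers and at 13.9% or below in each of the 6 knockout livers.

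Some of the genes had close profiles across the libraries. Likeness was measured as the root mean square difference between centred log2(TPM + 1) profiles over the 12 libraries, and it is a description, since all genes share the same libraries and the close copies share reads. Mup1 and Mup12 were nearest (0.110), and Mup12 stood at 42.1% to 53.7% of Mup1 in every library, while 88.3% of the words of Mup12 also occur in Mup1. Mup3 was near Mup21 (0.480) and Mup20 (0.487), and Mup2 near Mup10 (0.603). Mup10 and Mup17 were farthest apart (2.14).

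Among 4109 genes outside the family with a mean of at least 10 TPM, the profile nearest to the sum of the 10 genes was that of Cyp7b1 (0.436), an oxysterol hydroxylase that is male-biased in mouse liver. It was followed by Slco1a1 (0.531), an organic anion uptake transporter, C6 (0.549), a component of the complement membrane attack complex, the co-chaperone Bag3 (0.553) and Scfd1 (0.553), which acts in vesicle transport. For comparison, the profile of the sum itself had an SD of 0.756. Cyp7b1 fell to 18.0 TPM in WT mouse 7 on LFD and reached 168 TPM in knockout mouse 2 on LFD. The protein-coding genes that flank the array, Inip (0.64 to 1.48 TPM) and Slc31a2 (2.12 to 5.65 TPM), were low in all libraries and were called in 0 of the 5 comparisons.

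**Figure D5:**
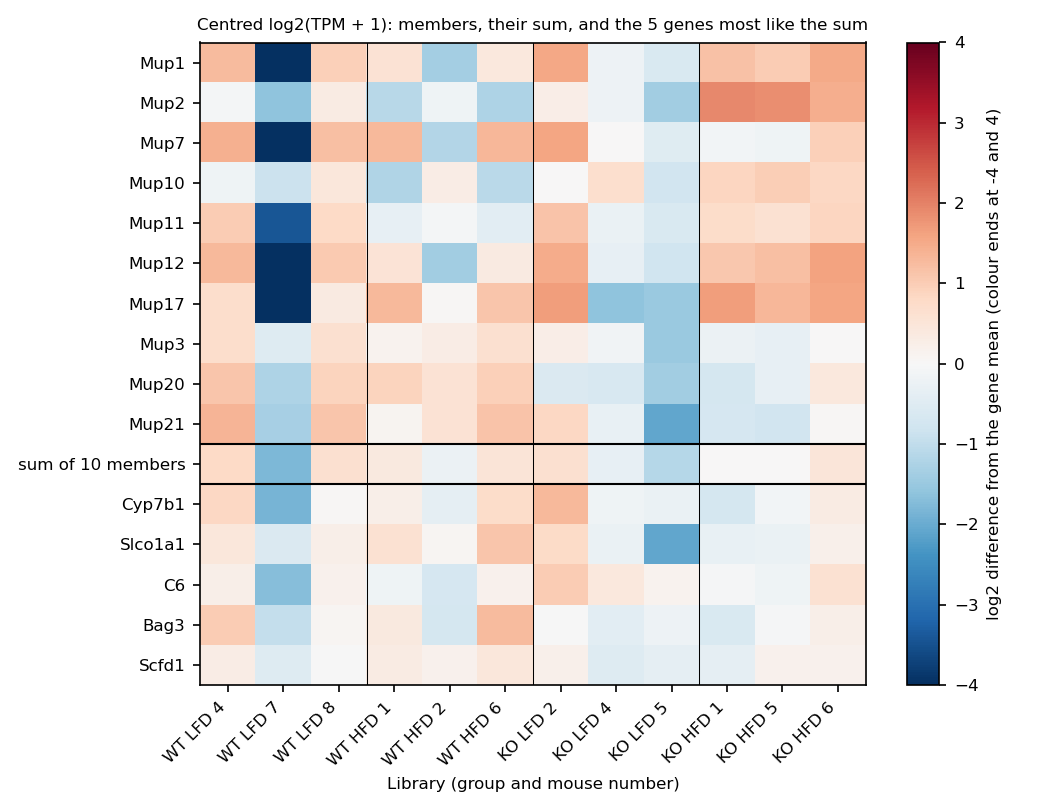
Difference from the gene's own mean of log2(TPM + 1) (colour, ends at -4 and 4) for the 10 genes, their sum and the 5 genes most like the sum (rows) in the 12 libraries (columns, group and mouse number). WT mouse 7 on LFD is the darkest blue column, Cyp7b1 is blue there too, and Mup2 is reddest in the 3 knockout livers on HFD.

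The table held 12 other protein-coding Mup genes, 11 of which passed the filter on low values, and 27 pseudogenes, 14 of which passed. The 10 genes made up 40.4% to 52.2% of all Mup TPM. The 3 most abundant of the others were Mup22 (mean 17291 TPM), Mup19 (10774 TPM) and Mup14 (8801 TPM), and none of them was called in the 5 comparisons. On HFD 0 of the 11 others were called higher and 1 lower in knockout livers, against 11.2% of all tested genes higher and 25.8% lower. That gene, Mup18, named after its values were seen, was at 6621, 9739.5 and 7782 TPM in WT and 1514, 2113 and 3849.7 TPM in knockout livers (log2 change -1.78, adjusted p = 0.0274). Between diets in knockout livers 1 was called higher, Mup8, and 0 lower, against 6.73% of all tested genes higher and 17.0% lower. Mup8, also named after its values were seen, was at 299, 387 and 142 TPM on LFD and 3644, 2173 and 1507 TPM on HFD (3.16, adjusted p = 0.0178). Of the 14 tested pseudogenes, 2 were called higher and 0 lower in each of these comparisons. The sum of the other genes overlapped between groups, with a knockout over WT ratio of 0.932 on HFD, and 93.1% of the words of Mup18 and 93.3% of those of Mup8 occur in another gene.

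In the pathway that is known to drive these genes in mice, 13 of 14 listed genes of growth hormone and STAT5 signalling were tested. On HFD 2 were higher and 3 lower in knockout livers, with a median log2 change of -0.41, against 11.2% of all tested genes higher and 25.8% lower and a median of -0.25, so the count is near the background. Igf1, the main growth hormone target secreted by the liver, was at 523, 545 and 561 TPM in WT and 1033, 755 and 786 TPM in knockout livers (0.65 ± 0.20, adjusted p = 0.0244). Stat5b, the transcription factor that carries the signal, was at 8.06, 5.11 and 6.30 TPM in WT and 2.35, 3.73 and 3.27 TPM in knockout livers (-0.86 ± 0.24, adjusted p = 0.0183). Stat5a (-0.82 ± 0.24, adjusted p = 0.0197) and Igfbp1, which encodes a binding protein for insulin-like growth factors (-2.66 ± 0.67, adjusted p = 0.0115), also fell. Between diets in knockout livers 2 were higher and 2 lower of the 13, with a median of -0.05, where 23.8% of all tested genes were called and their median was -0.22. Cish, a STAT5-induced inhibitor of the same pathway, rose (2.04 ± 0.60, adjusted p = 0.0308), as did Igf1 (0.64 ± 0.20, adjusted p = 0.0366). Stat5b (-1.17 ± 0.24, adjusted p = 0.00856) and Igfbp1 (-4.08 ± 0.67, adjusted p = 0.00391) fell. In the genotype comparison on LFD and the diet comparison in WT, 0 of 13 were called, against 0.159% and 0.309% of all tested genes.

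Of 16 tested liver and hormone-receptor transcription factors, 0 were higher and 7 lower in knockout livers on HFD, with a median of -0.52, beside 11.2% of all tested genes higher, 25.8% lower and their median of -0.25. They included Cebpa (-1.02 ± 0.25, adjusted p = 0.0110), the glucocorticoid receptor gene Nr3c1 (-0.77 ± 0.22, adjusted p = 0.0175), the coactivator gene Ppargc1a (-0.69 ± 0.17, adjusted p = 0.0103) and Zhx2 (-0.99 ± 0.23, adjusted p = 0.00853). ZHX2 is known in mice as a regulator of several liver genes, Mup genes among them. Of 15 other male-biased genes, 2 were higher and 0 lower, C8a (0.70 ± 0.24, adjusted p = 0.0407) and Gstp2 (2.37 ± 0.79, adjusted p = 0.0349), with a median of -0.31. Of the 5 tested of 15 female-biased genes, 1 was lower, Abcd2 (-1.62 ± 0.42, adjusted p = 0.0128), with a median of -0.73. On LFD 0 of the male-biased and 0 of the female-biased genes were called, against 0.159% of all tested genes.

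Genes of other lipocalins, the protein family to which the major urinary proteins belong, were set beside them. Of 8 tested, 1 was lower in knockout livers on HFD, Apom, which carries sphingosine-1-phosphate on HDL (-1.80 ± 0.38, adjusted p = 0.00554), and 0 were higher. In that comparison 25.8% of all tested genes were lower and 11.2% higher. Between diets in knockout livers, where 17.0% of all tested genes were lower, 4 of 8 fell, Orm2 (-5.94 ± 0.80, adjusted p = 0.00185), Orm1 (-3.02 ± 0.50, adjusted p = 0.00399), Apom (-2.79 ± 0.38, adjusted p = 0.00191) and Ambp (-1.54 ± 0.25, adjusted p = 0.00380), and Mup2 rose in the same livers. On LFD, where 0.0918% of all tested genes were higher, 1 was higher in knockout livers, Orm2, an acute-phase protein gene (6.20 ± 0.80, adjusted p = 0.0146). Of 20 abundant plasma protein genes of hepatocytes, 1 was higher and 8 lower in knockout livers on HFD, with a median of -0.53, where 37.0% of all tested genes were called and 25.8% were lower. Among those that fell were Fga, Fgb and Fgg, which encode the chains of fibrinogen (-2.19, -1.56 and -1.59, with adjusted p of 0.00514, 0.00851 and 0.0104 in limma).

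Markers of other liver cells moved with genotype on HFD beside the Mup genes. All 11 endothelial markers were higher in knockout livers, where 11.2% of all tested genes were higher, and their summed level was 24.6 to 43.6 TPM in WT and 84.9 to 111 TPM in knockout livers. Of 11 Kupffer cell and macrophage markers 6 were higher and 0 lower (28.3 to 78.9 against 70.0 to 435 TPM), and of 9 tested stellate cell and fibroblast markers 3 were higher and 0 lower (27.1 to 46.4 against 44.1 to 82.4 TPM). Of 3 tested cholangiocyte markers 0 were higher and 2 lower (41.3 to 69.2 against 25.9 to 32.4 TPM), where 25.8% of all tested genes were lower. On LFD, where no Mup gene of the 10 was called, 0 markers of these 4 lists were called, against 0.159% of all tested genes. Their summed levels there were 41.7 to 58.5 TPM in WT and 89.2 to 99.7 TPM in knockout livers for the endothelial list, 62.4 to 118 against 156 to 491 TPM for Kupffer cells, 44.1 to 74.2 against 75.3 to 119 TPM for stellate cells, and 29.1 to 58.3 against 36.1 to 40.8 TPM for cholangiocytes. The endothelial, Kupffer and stellate sums were thus apart between genotypes on LFD. On HFD the endothelial sums were apart as well, while the Kupffer and stellate sums overlapped. The RNAs Malat1 and Neat1, which stay in the nucleus, also rose in knockout livers on HFD. Malat1 was at 8.70, 7.44 and 4.22 TPM in WT and 39.5, 71.5 and 126 TPM in knockout livers (3.26 ± 0.48, adjusted p = 0.00136), and Neat1 at 9.97, 23.5 and 10.3 TPM in WT and 59.96, 111 and 196 TPM in knockout livers (2.93 ± 0.49, adjusted p = 0.00212). The part of these cells, of nuclear RNA, of the mitochondrial share (8.58% to 11.1% in WT and 10.9% to 22.6% in knockout livers on HFD) and of RNA quality in the Mup values was not tested. In whole liver, a change in the share of hepatocytes and a change in Mup RNA per hepatocyte cannot be told apart.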

How the data were processed

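RNA-seq was made from the livers of 12 mice. Frozen tissue gave poly(A) RNA for TruSeq libraries, per the labels' protocols. HISAT2, StringTie and mm10 are named, per the submitters' processing notes, with no version given in the sources used here. A single table of TPM was deposited by the authors, and its library totals lie between 999999.6 and 1000000.3. Since TPM keeps no depth, no interval from counting was computed. Knockout columns carry another abbreviation, and were matched through the authors' own mean columns, which differed from recomputed means by at most 3.33e-05 TPM. Symbols, for 55141 of 56107 rows, were looked up by Ensembl identifier.

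The 11980 genes that reached 1 TPM in 3 or more libraries, all 10 members among them, were fitted as log2(TPM + 1) in limma 3.58.1 (R 4.3.3). The fit had a mean for each group, a trended prior, 8 residual degrees of freedom and 2-sided tests. P-values were Benjamini-Hochberg adjusted over all 11980 genes, and called below 0.05. Fold changes on this scale are understated for low genes. The fit was tested on simulated data. Ratios of means are of TPM, and sums got no test. The sample numbers were checked for pairing: the deviations of 5 same-numbered pairs correlated at -0.26 to 0.10, so no block was used. Promoters were aligned with Biopython 1.88. Figures were drawn with matplotlib 3.10.9.

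The members and gene lists were chosen with earlier results of these data known. Named genes were all 10 members, the 3 most abundant other Mup genes, at most 4 genes with the lowest p per list and comparison, the 6 genes most like the sum, of which 1 is not reported here, and the genes flanking the array. The alternatives were pseudocounts of 0.1 and 10, other filters and scalings, array weights, a robust prior, only the groups compared, a block by mouse number, each library left out, and, added after the values were seen, both WT mouse 7 on LFD and WT mouse 2 on HFD left out.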

Additional observations from a re-analysis of the deposited data

Results flagged for a closer look

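The effect of genotype on Mup2 differed between the diets by 2.57 ± 0.73 on the log2 scale (interaction term in limma, adjusted p = 0.0487). On HFD Mup2 was higher in 3 of 3 knockout livers than in every WT liver (2.59 ± 0.52), and on LFD the groups overlapped (0.02 ± 0.52). The other 9 genes did not pass the same test. Over the alternatives the adjusted p of this difference ranged from 0.00358 to 0.126. Groups of 3 libraries are too small for the test of single outlying samples, so none was made.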

How the results depend on the processing

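On HFD, the number of genes called between genotypes was 1 with no filter on low values (15.3% of all genes tested called), 6 when only the HFD libraries were fitted (34.0%), and 1 to 3 when 1 library was left out (19.6% to 39.2%), against 2 (37.0%). The LFD libraries did not enter the spread in the second of these fits. The cause of each of these changes in number was not tested. For the interaction it was 0 with no filter, with a pseudocount of 0.1, with a robust prior, with TPM rescaled without Mup rows and with the mouse number as a block, 2 with array weights, where 40.8% of all genes were called, and 0 to 1 when 1 library was left out (0.202% to 17.2%), against 1 (9.66%). In the fits with 0 of the 10 the share of all genes was 0.692%, 8.67%, 10.5%, 6.05% and 0.150%, in that order. For diet in WT livers it was 1 with array weights, where 21.7% of all genes were called, against 0 (0.309%). The mouse numbers do not pair the samples. With the number as a block (2 residual degrees of freedom) 2 genes were called between diets in knockout livers, against 1, while the share of all genes called was 4.62% against 23.8%, and the interaction of Mup2 was 3.14 (adjusted p = 0.126). Mup7 turned from -0.255 to 0.093 between genotypes on HFD with median-ratio scaling, and ranged from -1.086 to 0.173 when 1 library was left out, above 0 without WT mouse 1 and without WT mouse 6. It was called under none of these. Median-ratio scaling moved the median change of all genes on HFD from -0.25 to 0.01 and the share of calls that were higher from 30.4% to 52.3%, and quantile normalization moved them to -0.08 and 44.2%. Relative to that median Mup2 was 2.84 higher as reported, 2.93 with median-ratio scaling and 2.76 with quantile normalization, and Mup10 1.81, 1.90 and 1.56. The log2 ratio of the summed level ranged, when 1 library was left out, from -0.945 to 0.002 for genotype on LFD, -0.26 to 0.085 for genotype on HFD, -0.464 to 0.365 for diet in WT and -0.032 to 0.883 for diet in knockout livers. Without depth, the precision of low values such as those of WT mouse 7 on LFD is unknown.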
